A study of Mus musculus with 16 samples.

Results

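The effect of MeOH eluate on gene expression in differentiating mESCs was compared between 24 h and 6 h of treatment. WS1442 is an extract that is made with ethanol from the leaves and flowers of hawthorn and then dried. MeOH eluate is the methanol fraction that came off a Sephadex LH-20 column loaded with WS1442, and oligomeric procyanidins are enriched in it. The comparison was the difference of 2 differences, namely MeOH eluate minus DMSO at 24 h, less MeOH eluate minus DMSO at 6 h, on the log2 scale. It used 10 of the 16 arrays of the series, chosen by the treatment and time given in their titles. These were 2 cultures with the vehicle DMSO and 3 with 0.1 mg/ml MeOH eluate at each time, and the other 6 arrays held cultures treated with 0.25 mg/ml WS1442. All cultures were of CGR8, a line of mouse embryonic stem cells from strain 129, and all were in cardiac differentiation and treated from day 4, so that 6 h and 24 h count from that day. A single line stands for all groups, and nothing in the sample descriptions tells how separate the cultures of a group were, so the p-values below measure only the spread between these samples. RNA was read on 1-colour Agilent arrays, on which the brightness of a probe measures the amount of a transcript and the number of arrays limits the precision.

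Mouse embryonic stem cells that leave pluripotency pass through a state like the primitive streak, in which Nodal and Wnt signals switch on T, Mixl1 and Gsc, and then form mesoderm, from which heart, vessels and blood arise. The factors Etv2 and Tal1 direct mesoderm to endothelium and blood, whereas Gata4, Isl1 and Tbx3 belong to the progenitors of the heart. Retinoic acid, made from retinol by Rdh10 and Aldh1a2, patterns this mesoderm. All 23 tested markers of pluripotency were well above background in the DMSO cultures, as were those of the streak and 20 of 21 cardiac progenitor factors. Most markers of endoderm, neuroectoderm, endothelium, primitive blood and mesenchyme were above background there too. In cultures of mixed cells, fewer cells of a type and less RNA per cell cannot be told apart.

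The arrays of the 4 groups had 55.1% to 63.0% of gene spots well above background and RNA integrity numbers of 9.6 to 10. The DMSO arrays at 24 h lay near the 2 ends of that range of spots, at 63.0% for replicate 1 and 55.5% for replicate 2. Replicates correlated with r between 0.984 and 0.995 across genes. The 2 DMSO cultures at 24 h stood farthest apart, with a standard deviation of 0.54 for the log2 difference between them, against 0.29 for the DMSO cultures at 6 h. The arrays of a time point shared a slide, so levels at 6 h and 24 h cannot be told apart from the slide and are given here side by side without a comparison. Each effect was taken against the DMSO cultures of the same time and slide.

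Among 29303 genes tested, the effect of MeOH eluate differed between 24 h and 6 h for 424 (1.45%), by more than 2-fold and at an adjusted p under 0.05 (limma, Benjamini-Hochberg over all genes tested). Values at these 2 limits are named called below. The difference was positive for 237 genes (0.809%), for which the effect at 24 h was the higher one, and negative for 187 (0.638%). With no limit on the fold change there were 2280 genes (7.78%), 1154 positive and 1126 negative. The effect itself was called for 428 genes at 6 h (1.46%), 221 higher and 207 lower than in DMSO, and for 594 genes at 24 h (2.03%), 364 higher and 230 lower. Only 61 genes were called at both times, 58 of them in the same direction. In 323 of the 424 genes the estimated effects at the 2 times had opposite signs, and in 101 the same sign. Signs were counted however near 0 the estimate was. A large difference of the effects favours opposite signs, so this share was in part set by the selection. Only 39 genes met the rule for a reversed effect given below. Across all genes tested, which are not independent replicates, the effects at 6 h and 24 h correlated with a Pearson r of 0.27, and their standard deviations were 0.38 and 0.40. The median difference over all genes was 0.01 and its median standard error 0.19. A count of 230 of the 424 genes, 127 of them positive, stayed called whichever of the 10 arrays was left out. At the limit of the call, with absolute differences that round to 1.00, Anxa5 (positive) and Parvb (negative) lay just inside and Mal (positive) and C3 (negative) just outside.

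The called genes fell into classes set by the 3 comparisons. A transient effect, called at 6 h and with a called difference of the opposite sign, was found for 71 genes, 41 higher and 30 lower at 6 h. In 9 of these the effect at 24 h still had an adjusted p under 0.05, so it had faded and not ended. A late effect, called at 24 h and with a called difference of the same sign, was found for 139 genes, 75 higher and 64 lower, and in 12 of them the effect had an adjusted p under 0.05 at 6 h too. The effect was reversed in 39 genes. These had an adjusted p under 0.05 at both times, opposite signs, a called difference and a called effect at 1 or both times. Of these, 21 went from lower than DMSO to higher and 18 from higher to lower. A sustained effect, called at both times in 1 direction and with no called difference, was found for 52 genes, 26 in each direction. In a further 175 genes the difference was called and neither effect alone was. All 39 reversed genes kept a called difference with each array left out in turn, against 84 of the 139 late and 27 of the 71 transient genes. Reversed genes need an adjusted p under 0.05 in both effects, so this share was in part set by the definition. Late genes with a higher effect were dimmer, since 37 of 75 were well above background on all 10 arrays, against 56 of 64 late genes with a lower effect.

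**Figure D1:**
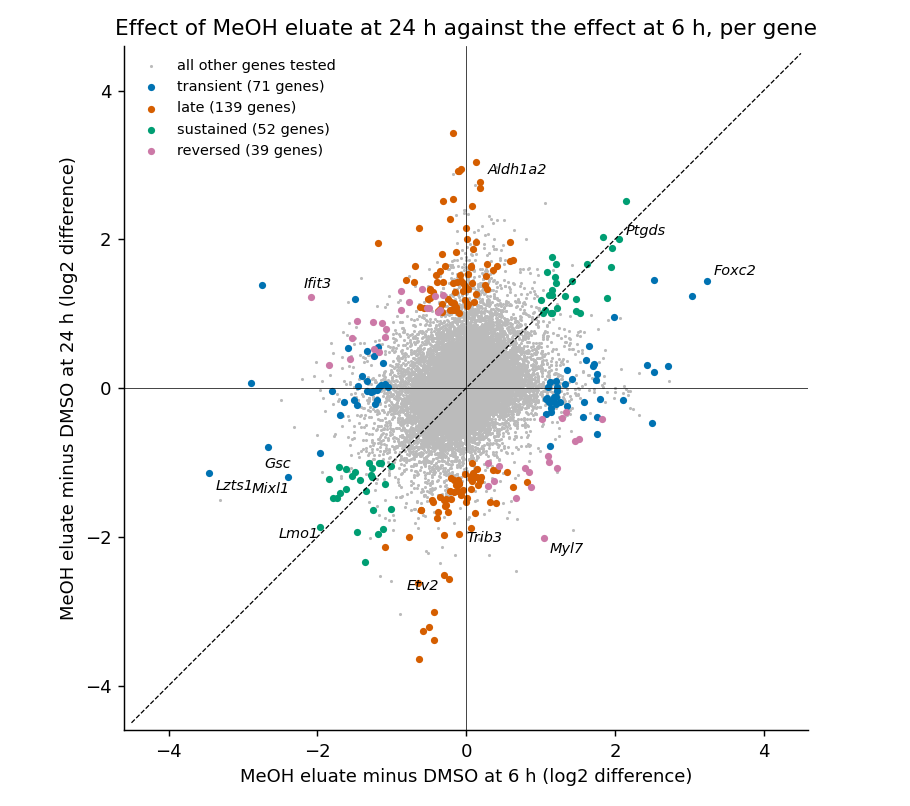
Log2 effect of MeOH eluate against DMSO at 6 h (x axis) and at 24 h (y axis) for each gene tested, coloured by class. The 71 transient genes lie near the horizontal axis, the 139 late genes near the vertical axis, the 52 sustained genes along the diagonal, and the 39 reversed genes in the upper left and lower right.

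Within the transient class the lowest effect at 6 h was that of Lzts1, which encodes a leucine zipper protein known as a tumour suppressor. Its log2 signal at 6 h was 11.02 and 11.08 in the DMSO cultures and 7.57, 7.62 and 7.60 with MeOH eluate. The values at 24 h were 10.47 and 10.62 with DMSO and 9.49, 9.37 and 9.33 with MeOH eluate. The treated cultures lay below both DMSO cultures at each time without overlap, and the gap narrowed from 10.9-fold to 2.22-fold. The effect of -3.45 at 6 h and -1.15 at 24 h gave a difference of 2.30 ± 0.08 (SE, adjusted p = 2.3e-09 by limma). Another probe of this gene gave a difference of 1.44 and a further one 0.20 (adjusted p = 0.73), so the size rests on the brightest probe.

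Gsc, Mixl1 and T, genes of the primitive streak, were called lower at 6 h and had a called positive difference. Gsc, a homeobox factor of the anterior streak and organizer, had signals of 11.84 and 12.07 with DMSO and 9.23, 9.39 and 9.26 with MeOH eluate at 6 h. At 24 h they were 11.92 and 11.91 with DMSO and 11.34, 11.21 and 10.84 with MeOH eluate. The groups were separate at both times, by 6.32-fold at first and by 1.73-fold later, with a difference of 1.87 ± 0.17 (adjusted p = 8.5e-06, limma). Mixl1, a homeobox factor of the streak and of the mesoderm and endoderm that leave it, went from -2.39 to -1.20, a difference of 1.20 ± 0.10 (adjusted p = 3.3e-06). T, the T-box factor that defines the streak, had signals of 7.93 and 7.91 with DMSO against 6.66, 6.71 and 6.53 with MeOH eluate at 6 h. By 24 h its DMSO cultures, at 7.66 and 7.47, lay within the range of 7.40, 7.43 and 7.71 with MeOH eluate. Its effect of -1.29 at 6 h was -0.05 at 24 h, a difference of 1.23 ± 0.15 (adjusted p = 0.00013), and a second probe gave 1.13 with an adjusted p of 0.15. Foxq1, a forkhead factor, took the same course, from -1.97 to -0.87.

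Of 22 tested genes of the primitive streak and early mesoderm, 6 were called lower and 1 higher at 6 h, and 3 lower at 24 h (0.706%, 0.754% and 0.785% of all genes). At an adjusted p under 0.05, 10 were lower at 6 h and 11 at 24 h (8.38% and 8.6% of all genes). The median effect went from -0.19 to -0.44. The difference was called positive for T, Mixl1 and Gsc and negative for Foxf1 (0.809% and 0.638% of all genes). The list as a whole had no common shift, with a median difference of -0.12 beside 0.01 for all genes. Evx1, a homeobox factor of the posterior streak, fell by 1.84 at 6 h and by 1.23 at 24 h and was sustained, as was Cdx2, a factor of posterior identity, whose effect was -1.74 at 6 h. For Cdx2 the MeOH eluate arrays at 24 h were not well above background, so that it was at least 2.00-fold lower there.

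In the Nodal pathway, Lefty1 and Nodal turned from lower to higher. Lefty1, a secreted inhibitor of Nodal and itself a target of it, measured 12.42 and 12.53 with DMSO and 10.66, 10.66 and 10.58 with MeOH eluate at 6 h. By 24 h it measured 11.42 and 11.35 with DMSO and 11.80, 11.80 and 11.48 with MeOH eluate. All treated cultures were below DMSO at the first time and all were above it at the second, by 3.59-fold and 1.24-fold, with a difference of 2.15 ± 0.12 (adjusted p = 2.8e-07, limma). Nodal, the ligand, was at 11.87 and 12.11 with DMSO and at 11.21, 11.45 and 11.28 with MeOH eluate at 6 h. Its signals at 24 h were 11.45 and 11.60 with DMSO and 12.47, 12.38 and 12.23 with MeOH eluate. The groups did not overlap at either time, and the effects of -0.68 and 0.84 gave a difference of 1.52 ± 0.19 (adjusted p = 0.00014). Cer1, a secreted antagonist of Nodal and BMP, had an effect of -1.81 at 6 h and -0.04 at 24 h, a difference of 1.77 ± 0.38 (adjusted p = 0.0087), with 1 of 3 treated arrays well above background at 6 h.

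The pathway did not move as one. Lefty2, the close relative of Lefty1, was sustained at -1.71 and -1.06, and the coreceptor Tdgf1 was called only at 6 h, at -1.17. Cfc1, the other coreceptor of this family, had no call at 6 h and fell by 1.24 at 24 h, a difference of -1.13 ± 0.22 (adjusted p = 0.0055). No gene of the list had a called negative difference without DMSO 24 h replicate 2, without MeOH eluate 24 h replicate 3, or with the replicate number as a block within a time point. In all, 3 of 23 genes of the Nodal and TGF-beta pathway had a called positive difference and 1 a negative one. Over all genes these shares were 0.809% and 0.638%. At an adjusted p under 0.05, 8 of the list were positive and 4 negative (3.94% and 3.84% of all genes). The median difference was 0.36, positive in 17 genes, and it was 0.22 without DMSO 24 h replicate 1.

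Foxc2 carried the largest transient rise of a developmental factor. This forkhead factor of paraxial mesoderm and vessels had signals of 5.78 and 5.76 with DMSO and of 9.00, 9.08 and 8.94 with MeOH eluate at 6 h. After 24 h the signals were 7.66 and 7.66 with DMSO and 9.31, 9.15 and 8.82 with MeOH eluate. The treated cultures were above DMSO at both times, 9.45-fold and 2.71-fold, and the difference was -1.80 ± 0.16 (adjusted p = 7.3e-06, limma). Other forkhead genes behaved in their own ways. Foxc1 was called only at 6 h (1.58, with a difference of -0.82 that did not reach 2-fold). Foxf1, of lateral mesoderm, reversed from 1.29 to -0.41, a difference of -1.70 ± 0.18 (adjusted p = 3.2e-05). Of 21 forkhead genes tested, 3 had a called negative difference, the third being Foxd1 (-1.77), and Foxq1 a positive one. Over all genes these shares were 0.638% and 0.809%. The call of Foxd1 held in only 1 of the 10 fits with an array left out.

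Signals between cells were among the other transient genes. Ccl20, a chemokine, had signals of 5.28 and 5.61 with DMSO and 6.95, 7.10 and 7.02 with MeOH eluate at 6 h. At 24 h the signals were 5.21 and 5.43 with DMSO and 4.77, 5.03 and 5.00 with MeOH eluate. The rise of 1.58 at 6 h was gone at 24 h (-0.38, adjusted p = 0.10), and the difference was -1.96 ± 0.22 (adjusted p = 5.3e-05, limma). Gfra3, a receptor of the GDNF family, went from 2.53 to 0.22, and Dio3, which inactivates thyroid hormone, from 1.76 to -0.39. Ccl2, a chemokine for monocytes, faded from 2.52 to 1.45. Ndrg1, known to respond to low oxygen and to stress, went from 1.20 to -0.12.

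Some of the largest transient differences belonged to dim genes. Stac, an adaptor protein with an SH3 domain, was well above background only with MeOH eluate at 6 h, where it was at least 1.89-fold higher than in DMSO, and its call held in only 3 of the 10 fits with an array left out. Ctla2b, named for cytotoxic T cells, was above background in DMSO and not with MeOH eluate at 6 h, at least 1.14-fold lower. Yipf7, a membrane protein of the Golgi, had a called fall of 1.50 at 6 h, and no array of either group was well above background at 24 h, so no fold is given there. Bmp5, a BMP ligand, and Rora, a nuclear receptor, were also called transient, at 1.13 and 1.21 at 6 h. A further probe gave a difference of -0.82 (adjusted p = 0.56) for Bmp5 and -0.38 (adjusted p = 0.55) for Rora, so neither was called by it.

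**Figure D2:**
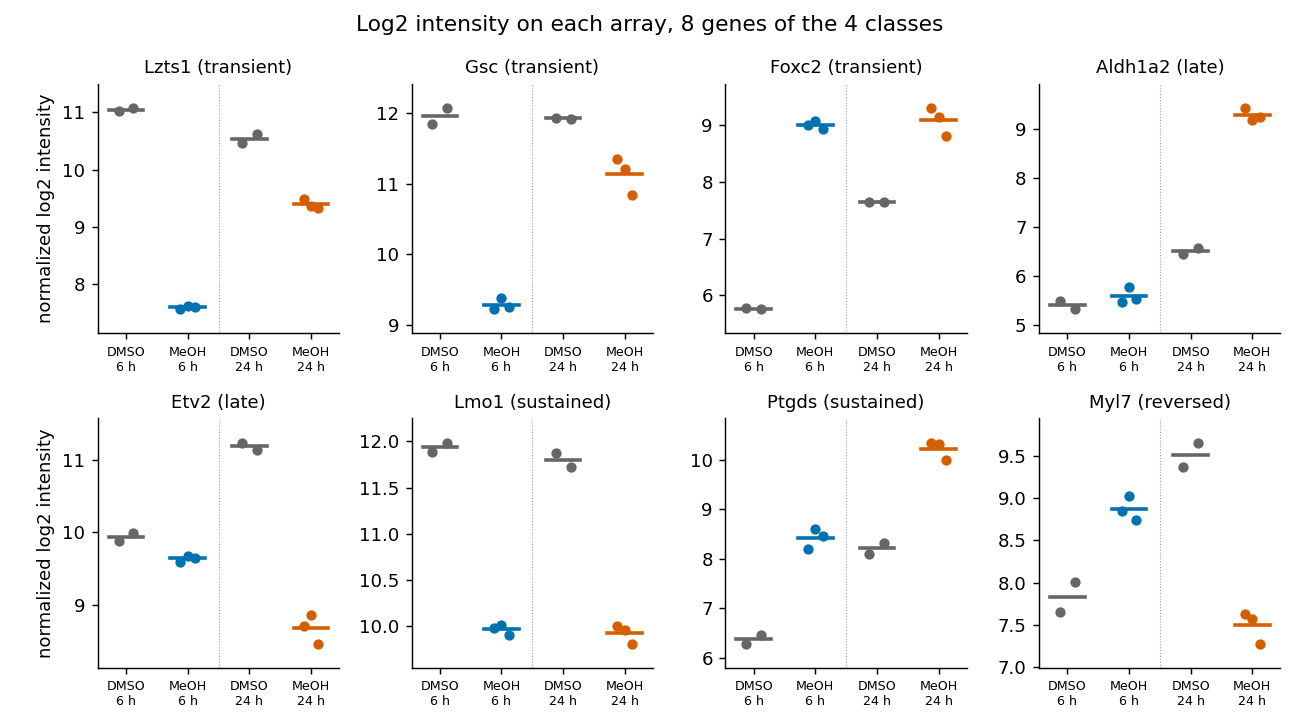
Log2 signal of 8 genes on each of the 10 arrays, DMSO and MeOH eluate at 6 h and at 24 h, with each point an array and each bar a group mean. Lzts1, Gsc and Foxc2 have a wide gap between treated and DMSO cultures at 6 h and a narrower one at 24 h, Aldh1a2 and Etv2 separate widely only at 24 h, Lmo1 and Ptgds have a like gap at both times, and the gap of Myl7 turns over.

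A gene of retinoic acid synthesis was among those with a late effect. Aldh1a2, the enzyme that makes retinoic acid from retinaldehyde, measured 5.49 and 5.33 with DMSO and 5.47, 5.78 and 5.54 with MeOH eluate at 6 h, with overlapping groups. At 24 h it measured 6.46 and 6.57 with DMSO and 9.43, 9.18 and 9.24 with MeOH eluate, which was 6.84-fold higher without overlap. The difference was 2.59 ± 0.22 (adjusted p = 4.1e-06, limma), and between 2.51 and 2.68 with each array left out. Rdh10, which makes retinaldehyde from retinol, reversed from -0.42 to 1.24, a difference of 1.66 ± 0.13 (adjusted p = 3.5e-06). Dhrs3, which turns retinaldehyde back to retinol, went from -0.76 to 0.64, a difference of 1.40 ± 0.16 (adjusted p = 6.4e-05). These were 3 of the 17 tested genes of the retinoic acid list (0.809% of all genes), with no negative call. The median difference of the list was -0.11, so it did not shift as a whole. Cyp26a1, which degrades retinoic acid and is a known target of it, was sustained at -1.27 and -1.08, and Meis2, a homeobox factor, at 1.03 and 1.01.

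Etv2, Tal1 and Plvap, genes of endothelium and blood, were called lower at 24 h and not at 6 h. Etv2, an ETS factor that starts the endothelial and blood lineages, had signals of 9.88 and 9.99 with DMSO and 9.59, 9.67 and 9.65 with MeOH eluate at 6 h. Later, at 24 h, the signals were 11.24 and 11.13 with DMSO and 8.70, 8.85 and 8.46 with MeOH eluate. The effect went from -0.30 (adjusted p = 0.049) to -2.52, which is 5.72-fold lower, with a difference of -2.22 ± 0.14 (adjusted p = 5.3e-07, limma). Tal1, a helix-loop-helix factor of blood and endothelium, measured 7.15 and 7.16 with DMSO against 7.14, 7.25 and 7.24 with MeOH eluate at 6 h. Later it measured 8.30 and 7.92 against 6.28, 6.48 and 5.90, and the difference was -1.95 ± 0.23 (adjusted p = 0.00011). Another probe of Tal1 gave 1.11 at 6 h (adjusted p = 0.030) and -2.31 at 24 h, a difference of -3.42. Plvap, a protein of endothelial fenestrae, went from 0.32 to -1.53, a difference of -1.85 ± 0.27 (adjusted p = 0.00054).

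Of 19 endothelial genes tested, 3 had a called negative difference and none a positive one (0.638% and 0.809% of all genes). At 24 h 5 were called lower (0.785% of all genes), and the median difference of the list was -0.24. The third called difference was that of Pcdh12, a protocadherin of endothelium, at least 2.34-fold lower at 24 h. At 6 h it was well above background on only 1 of 5 arrays, and its difference lost the call whichever array was left out. Cdh5 and Vwf, also markers of endothelium, were called lower at 24 h, where no treated array was well above background, by at least 2.08-fold and 2.52-fold. Their differences were not called (adjusted p = 0.065 and 0.46), and another probe of Vwf had no called effect at 24 h (-0.73, adjusted p = 0.23). Of 15 genes of primitive blood, Tal1 alone had a called difference, while 2 were called lower and 1 higher at 24 h (0.785% and 1.24% of all genes). The higher one was Hbb-bh1, an embryonic beta-type globin, at 1.45 after -0.19 at 6 h, with a difference that was not called (1.64, adjusted p = 0.082). Lmo2, the partner of Tal1 in blood formation, fell by 1.46 at 24 h after an effect of -0.94 at 6 h.

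In the lists of BMP signalling and of cardiac progenitors, the called differences were negative. Msx2, a homeobox target of BMP, had signals of 10.74 and 10.69 with DMSO and 10.70, 10.75 and 10.89 with MeOH eluate at 6 h. At 24 h these were 12.12 and 12.09 with DMSO and 10.94, 10.95 and 10.88 with MeOH eluate, a difference of -1.25 ± 0.12 (adjusted p = 1.7e-05, limma). The groups overlapped at 6 h and were apart at 24 h. Id2, an inhibitor of helix-loop-helix factors and a BMP target, went from 0.89 to -0.30, a difference of -1.19 ± 0.14 (adjusted p = 8.8e-05). Of 23 BMP ligands and targets, 4 had a called negative difference and none a positive one, the others being Tbx3 and Bmp5. Over all genes these shares were 0.638% and 0.809%. At an adjusted p under 0.05, 7 of the list were negative and 1 positive (3.84% and 3.94% of all genes). The median of -0.28 was -0.15 without DMSO 24 h replicate 2 and -0.11 with normexp background correction.

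Gata4, a zinc finger factor of heart and endoderm, measured 7.97 and 8.12 with DMSO and 7.88, 7.98 and 7.94 with MeOH eluate at 6 h. Its later values were 9.37 and 9.41 with DMSO and 8.16, 8.13 and 7.76 with MeOH eluate. From partly overlapping groups it thus went to 1.38 lower, a difference of -1.27 ± 0.18 (adjusted p = 0.00043, limma). Isl1, a LIM factor of the second heart field, went from 0.55 to -0.57 and Tbx3, a T-box factor, from -0.60 to -1.64. Gata6, a relative of Gata4, was sustained at -1.79 and -1.48 with a difference of 0.32 (95% interval -0.10 to 0.73). Among 21 cardiac progenitor factors, 4 had a called negative difference, Foxc2 included, and none a positive one (0.638% and 0.809% of all genes). The median was -0.41, and the count lay between 3 and 5 in all alternatives run. The call of Tbx3 was lost without 1 DMSO array at 6 h (replicate 2) or at 24 h (replicate 1).

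The remaining late genes with the largest differences were mostly dim at 1 time. Hotair, a long noncoding RNA of the HoxC cluster, and Fstl4, a follistatin-like protein, were above background in all groups but DMSO at 24 h. There they were at least 2.13-fold and 2.06-fold higher with MeOH eluate. Bcl2l15, a relative of the BCL2 proteins, was above background in all groups but MeOH eluate at 24 h, where it was at least 3.53-fold lower. Il7, a cytokine of lymphocytes, was at least 2.16-fold higher at 24 h, with no call at 6 h. Pilra, an inhibitory receptor of myeloid cells, was at least 4.73-fold lower at 24 h, but its difference kept the call in only 3 of the 10 fits with an array left out. Serpinb1a, a protease inhibitor, was at least 1.77-fold higher at 24 h and kept the call in only 1. Hoxb6, a homeobox gene, was below background in both groups at 6 h and had signals of 6.21 and 5.95 with DMSO and 2.82, 4.02 and 2.36 with MeOH eluate at 24 h. Of these 3 treated arrays 1 was well above background. Cryab, a small heat shock protein, rose by 1.05 at 24 h, with a difference of 1.27.

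In the reversed class, Myl7, the atrial myosin light chain and an early mark of cardiomyocytes, had the largest turn from higher to lower. It measured 7.65 and 8.01 with DMSO and 8.85, 9.03 and 8.74 with MeOH eluate at 6 h. At 24 h it measured 9.37 and 9.66 with DMSO and 7.63, 7.57 and 7.28 with MeOH eluate. The groups did not overlap at either time. The effect went from 2.06-fold higher to 4.05-fold lower, a difference of -3.06 ± 0.23 (adjusted p = 1.7e-06, limma). Myl7 was the only 1 of 21 genes of the sarcomere and contractile list with a called difference, and the list median was 0.13.

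The other genes named for this turn were Ndrg2, Trim47 and Fgf3. Ndrg2, linked to growth arrest, went from 1.22 to -1.08, a difference of -2.30 ± 0.26 (adjusted p = 6.6e-05, limma). Trim47, a ubiquitin ligase, had signals of 6.96 and 6.62 with DMSO and 8.65, 8.67 and 8.52 with MeOH eluate at 6 h. At 24 h the order had turned, with 7.15 and 7.07 against 6.65, 6.62 and 6.83, although the effect there was small (-0.41). Fgf3, a ligand of the FGF family, went from 0.88 to -1.33, a difference of -2.21 ± 0.18 (adjusted p = 3.5e-06), and its other probes gave -2.18 and -1.61. Fgf15, a second FGF ligand, went from 1.34 to -0.32. These were the only 2 called among 23 genes of FGF and its feedback (0.638% of all genes were called negative). The median difference was 0.15, so the list did not move with them.

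Among genes that turned from lower to higher, Nt5e, the enzyme at the cell surface that makes adenosine, measured 7.35 and 7.52 with DMSO and 5.81, 6.04 and 5.87 with MeOH eluate at 6 h. Its values at 24 h were 6.38 and 6.63 with DMSO and 7.24, 7.19 and 7.10 with MeOH eluate. All treated cultures lay below DMSO and then above it, and the difference was 2.20 ± 0.18 (adjusted p = 4.1e-06, limma). Slc5a5, the sodium iodide symporter, went from -0.88 to 1.31, a difference of 2.18 ± 0.12 (adjusted p = 2.8e-07). Lce1g, of a family of cornified envelope proteins, was above background only in DMSO at 6 h and on 1 of 3 treated arrays at 24 h, so its turn rests on dim signals.

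In the sustained class the difference was not called, and its absolute value ran up to 0.98. Lmo1, a LIM-only transcription cofactor, had signals of 11.88 and 11.99 with DMSO and 9.99, 10.01 and 9.90 with MeOH eluate at 6 h. At 24 h the signals were 11.87 and 11.73 with DMSO and 10.00, 9.96 and 9.81 with MeOH eluate. The fall was 3.91-fold and 3.66-fold, and the difference was 0.10 with a 95% interval of -0.14 to 0.34. Ptgds, prostaglandin D2 synthase, measured 6.28 and 6.46 with DMSO and 8.21, 8.60 and 8.45 with MeOH eluate at 6 h, then 8.11 and 8.33 against 10.35, 10.32 and 9.99 at 24 h. It was 4.13-fold and 4.01-fold higher, with an interval of the difference from -0.59 to 0.50. Pcdh19, a protocadherin of the nervous system, was 2.15 and 2.52 higher, with an interval from -0.12 to 0.85. Dusp8, a phosphatase of JNK and p38, was 1.33 and 1.24 higher. Chac1, which degrades glutathione, fell by 1.47 and by 1.93, and the interval of the difference was -0.83 to -0.09 (adjusted p = 0.13, limma). An uncalled difference does not show that the effects were equal, and these intervals give the sizes that the data allow.

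The largest group of genes with a called difference was found among targets of interferon. Interferons act through a DNA motif, the interferon-stimulated response element or ISRE, and switch on genes that block viruses and present antigen. This list of 50 tested genes was written after the values were seen, so its counts describe the data and carry no test. The difference was called positive for 18 of 50 genes and negative for none, beside 0.809% and 0.638% of all genes. At an adjusted p under 0.05 with no limit on fold, 34 were positive and 1 negative, beside 3.94% and 3.84%. At 6 h, 22 of the 50 had an adjusted p under 0.05 and an effect below 0 and 4 above 0 (8.38% and 8.65% of all genes). At 24 h none was below 0 and 38 were above (8.60% and 9.64%). The list median went from -0.31 at 6 h to 0.55 at 24 h, the median difference being 0.68. The count of called positive differences was 16 to 19 with each array left out in turn and 7 with normexp background correction, the lowest of all alternatives, where the median was 0.60.

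Among these genes Isg15, a ubiquitin-like protein that is attached to others, had signals of 10.44 and 10.63 with DMSO and 9.79, 9.96 and 9.73 with MeOH eluate at 6 h. At 24 h the signals were 11.39 and 11.44 with DMSO and 12.20, 12.29 and 12.06 with MeOH eluate. The groups were apart at both times and in opposite order, 1.63-fold lower and then 1.70-fold higher, with a difference of 1.47 ± 0.12 (adjusted p = 3.7e-06, limma). Iigp1, an immunity-related GTPase, went from 7.40 and 7.44 with DMSO against 5.69, 5.96 and 5.94 at 6 h to 8.33 and 8.20 against 8.63, 8.77 and 8.55 at 24 h. Its difference was 1.95 ± 0.13 (adjusted p = 9.6e-07). Parp14, an ADP-ribosyltransferase, measured 10.47 and 10.38 with DMSO and 9.77, 9.88 and 9.86 with MeOH eluate at 6 h. At 24 h it measured 9.30 and 10.19 with DMSO and 11.08, 11.02 and 11.11 with MeOH eluate, so the DMSO cultures were far apart there, and the difference lay between 1.48 and 2.37 depending on the array left out.

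The Ifit genes, whose proteins bind foreign RNA, had some of the highest values. Ifit3 was above background in DMSO (3.82 and 3.91) and not with MeOH eluate at 6 h, at least 1.19-fold lower, and at 24 h went from 5.82 and 5.77 with DMSO to 7.02, 6.97 and 7.06. Ifit3b, its neighbour in sequence, had an effect of -0.31 and then 1.25, and Ifit1 of -0.57 and then 1.07. Near-identical copies such as Ifit3 and Ifit3b can share probe signal. The other called genes were Ifit2, Mx2, Oasl2, Usp18, Ifih1, Xaf1, Rtp4, Ifi47, Gbp4, Samd9l, Zbp1 and Trim30a, with differences from 1.01 for Zbp1 to 1.77 for Samd9l. A further probe of Trim30a gave 0.10 (adjusted p = 0.92), another one 1.85. The gene that went the other way was Cxcl10, a chemokine induced by interferon and by NF-kB, which rose by 1.48 at 6 h and was 0.71 higher at 24 h, a difference of -0.77 (adjusted p = 0.033).

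Promoters of some of these genes are shown as examples of the ISRE motif. The search covered 250 bases before to 50 bases after each start site, on both strands, in the RefSeq table of mouse promoters (build GRCm38.p6). The ISRE was searched as TTTC and TTTC with any 2 bases between, a choice also made after the values were seen. It lay in 19 of the 45 promoters found for this list (42.2%) and in 7 of the 13 promoters of members with a called difference (53.8%), beside 3.09% of 20013 promoters of the genes tested. The list was of interferon targets, so a share above that of all promoters was in part set by its choice. By gene, 18 of 38 members with a promoter held the motif, and 6 of 11 with a called difference. Whether the motif marks the genes that turned was not tested. The first 160 bases before the start are given 5′ to 3′ along the strand of the gene, with the motif in capitals, which on the opposite strand reads GAAA and GAAA. The genes are Isg15 (chr4:156200819-156200978, minus strand), with 3 overlapping matches that begin 78, 72 and 66 bases before the start, Ifit1 (chr19:34640729-34640888, plus strand), at 104 and 85 bases, and Ifit3 (chr19:34583369-34583528, plus strand), at 156 and 122 bases.
Isg15: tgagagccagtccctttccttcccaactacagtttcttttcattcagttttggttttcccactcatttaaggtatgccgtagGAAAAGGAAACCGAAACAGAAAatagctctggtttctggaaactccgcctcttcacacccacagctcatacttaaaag
Ifit1: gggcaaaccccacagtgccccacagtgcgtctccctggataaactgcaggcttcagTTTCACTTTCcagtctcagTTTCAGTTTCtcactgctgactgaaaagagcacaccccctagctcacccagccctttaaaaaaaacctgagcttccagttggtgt
Ifit3: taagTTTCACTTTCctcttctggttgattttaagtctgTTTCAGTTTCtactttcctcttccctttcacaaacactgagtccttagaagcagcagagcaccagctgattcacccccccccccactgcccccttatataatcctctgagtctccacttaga

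A match describes the sequence only and shows no binding. Among the reversed genes that went from lower to higher, 4 of 16 promoters held the ISRE (25%), and these include members of the same list.

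The list of hypoxia and glycolysis genes shifted the opposite way. When oxygen is low or its sensors are blocked, the factor HIF-1 binds the letters ACGTG in promoters and raises glycolytic enzymes and genes such as Bnip3. Of 27 tested genes, 8 had a called negative difference (0.638% of all genes) and none a positive one. At an adjusted p under 0.05 with no limit on fold, 18 were negative and 1 positive (3.84% and 3.94% of all genes). At 6 h 17 genes were higher at an adjusted p under 0.05 and none lower (8.65% and 8.38% of all genes). At 24 h 2 were higher and 13 lower (9.64% and 8.6%). The median went from 0.33 to -0.21. The median difference was -0.63, and between -0.72 and -0.44 with an array left out. The DMSO cultures at 6 h lay apart, with a mean signal over the list of 10.86 and 11.09, against 11.36, 11.42 and 11.38 with MeOH eluate. The count of called genes was 7 to 11 in all alternatives run.

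Bnip3, a mitochondrial protein that promotes mitophagy, had signals of 10.20 and 10.86 with DMSO and 11.94, 12.09 and 12.09 with MeOH eluate at 6 h. After 24 h they were 12.50 and 12.80 with DMSO and 12.17, 12.21 and 11.52 with MeOH eluate. It was 2.85-fold higher and then 1.60-fold lower, without overlap at either time, a difference of -2.19 ± 0.29 (adjusted p = 0.00026, limma). Pfkp, a phosphofructokinase of glycolysis, went from 0.64 to -0.68, a difference of -1.32 ± 0.11 (adjusted p = 4.6e-06), and its other probes gave -1.10 and -1.05. Eno1, the enolase of glycolysis, went from 0.65 to -0.44. The oxygen sensors Egln1 and Egln3 went from 0.36 to -0.86 and from 0.45 to -0.96. P4ha2, a collagen prolyl hydroxylase, and Ankrd37, a known target of HIF-1, had differences of -1.24 and -1.50. Adm, which encodes the vasodilator adrenomedullin, was called at 6 h (1.19) and missed the limit of the difference by little (-0.98).

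The letters ACGTG, on either strand and chosen after the values were seen, lay in 20 of the 35 promoters of this list (57.1%) and in 22% of all promoters searched. Among members with a called difference they lay in 5 of 9 promoters (55.6%), a share no higher than that of the list. The list holds known targets of HIF-1, so a share above that of all promoters was in part set by its choice. The promoter of Bnip3 (chr7:138909507-138909666, minus strand) is shown since it belongs to the gene with the largest difference of the list. Its capitals mark CACGTG, which begins 108 bases before the start, reads the same on both strands and is also an E-box.
Bnip3: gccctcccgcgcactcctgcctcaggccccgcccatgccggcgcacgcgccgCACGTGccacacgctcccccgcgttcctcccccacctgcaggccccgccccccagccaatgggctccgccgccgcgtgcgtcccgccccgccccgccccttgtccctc

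**Figure D3:**
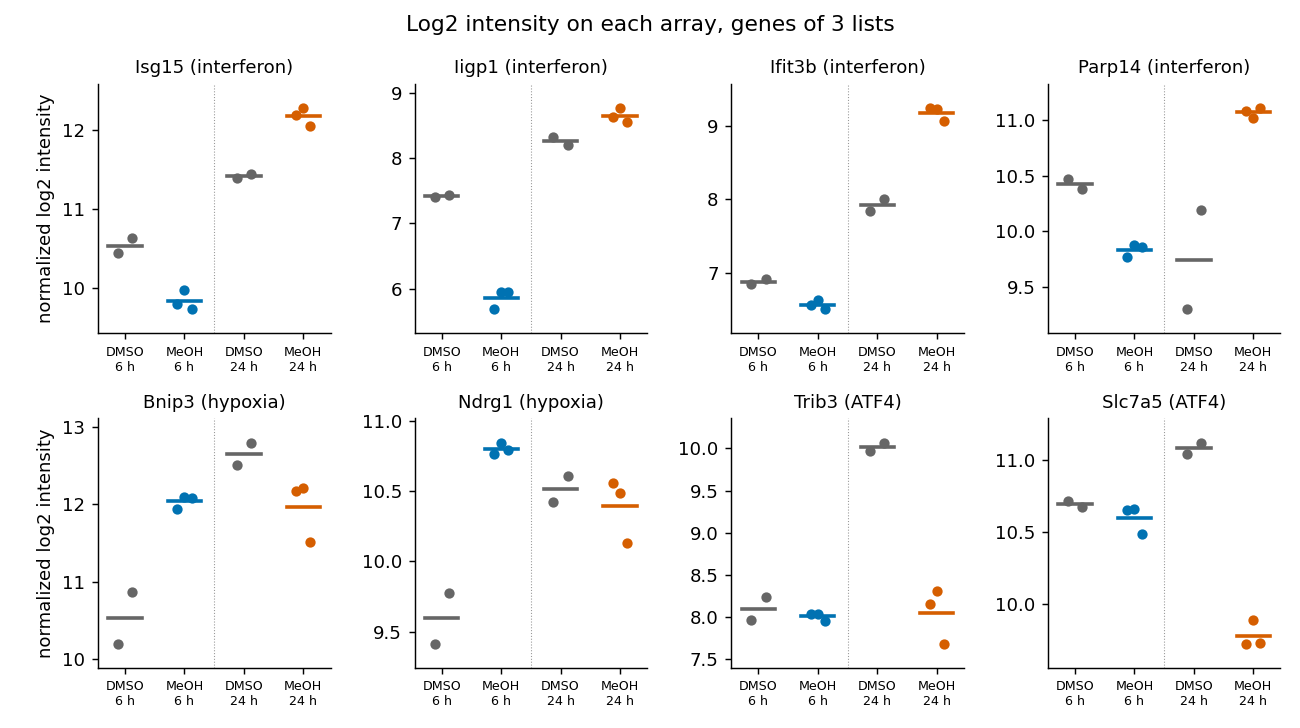
Log2 signal on each of the 10 arrays for 4 interferon-stimulated genes (Isg15, Iigp1, Ifit3b, Parp14), 2 hypoxia genes (Bnip3, Ndrg1) and 2 genes of the amino acid response (Trib3, Slc7a5), with points for arrays and bars for group means. The interferon genes lie below DMSO at 6 h and above it at 24 h, Bnip3 does the reverse, and Trib3 and Slc7a5 separate only at 24 h.

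In the list of the amino acid response, 19 of 25 tested genes were lower at 24 h at an adjusted p under 0.05, beside 8.60% of all genes. The factor ATF4 is made when amino acids are short or the endoplasmic reticulum is under stress, and it raises transporters and enzymes of amino acid synthesis. Of these genes, 5 had a called negative difference and none a positive one (0.638% and 0.809% of all genes), and 19 differences were negative and 1 positive at an adjusted p under 0.05 (3.84% and 3.94%). At 24 h 8 genes were called lower (0.785% of all genes). The median went from -0.09 at 6 h to -0.75 at 24 h, with a median difference of -0.58. Normexp background correction left 2 called differences and the replicate number as a block within a time point 4, and the other alternatives gave 5 to 7.

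Trib3, a pseudokinase that restrains ATF4, measured 7.97 and 8.23 with DMSO and 8.04, 8.04 and 7.96 with MeOH eluate at 6 h. The later arrays gave 9.97 and 10.07 with DMSO and 8.15, 8.31 and 7.69 with MeOH eluate. Overlapping groups at 6 h were thus followed by a 3.91-fold fall, a difference of -1.87 ± 0.20 (adjusted p = 3.8e-05, limma). Slc7a5, a transporter of large neutral amino acids, went from -0.09 to -1.30, a difference of -1.20 ± 0.09 (adjusted p = 2.6e-06). Pycr1, an enzyme of proline synthesis, went from -0.24 to -1.67, and Mthfd2, of the mitochondrial folate cycle, from -0.45 to -1.50. Nupr1, a stress-induced chromatin protein, went from 0.43 to -0.80. Chac1, described above, and Cebpb, an inflammatory factor that was called higher at 6 h only (1.06), did not share the late onset. The 16 tested genes of the unfolded protein response, a neighbouring stress pathway, had no called effect or difference, with a median difference of 0.08.

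The composite motif of ATF4 was searched as TGATGCAA on both strands. The list holds known targets of ATF4, so a share above that of all promoters was in part set by its choice. The motif lay in 4 of the 25 promoters of the list (16%) and in 0.69% of all promoters searched, and in 2 of the 4 promoters found for the members with a called difference. Both are shown, Pycr1 (chr11:120643749-120643908, minus strand), at 103 bases before the start, and Nupr1 (chr7:126625471-126625630, minus strand), at 110 bases on the opposite strand.
Pycr1: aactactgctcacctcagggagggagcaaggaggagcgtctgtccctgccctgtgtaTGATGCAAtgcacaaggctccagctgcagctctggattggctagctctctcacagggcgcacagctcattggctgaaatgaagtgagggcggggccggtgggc
Nupr1: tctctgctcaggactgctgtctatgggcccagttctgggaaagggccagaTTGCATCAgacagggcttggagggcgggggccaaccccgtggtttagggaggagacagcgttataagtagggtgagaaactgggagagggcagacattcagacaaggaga

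**Figure D4:**
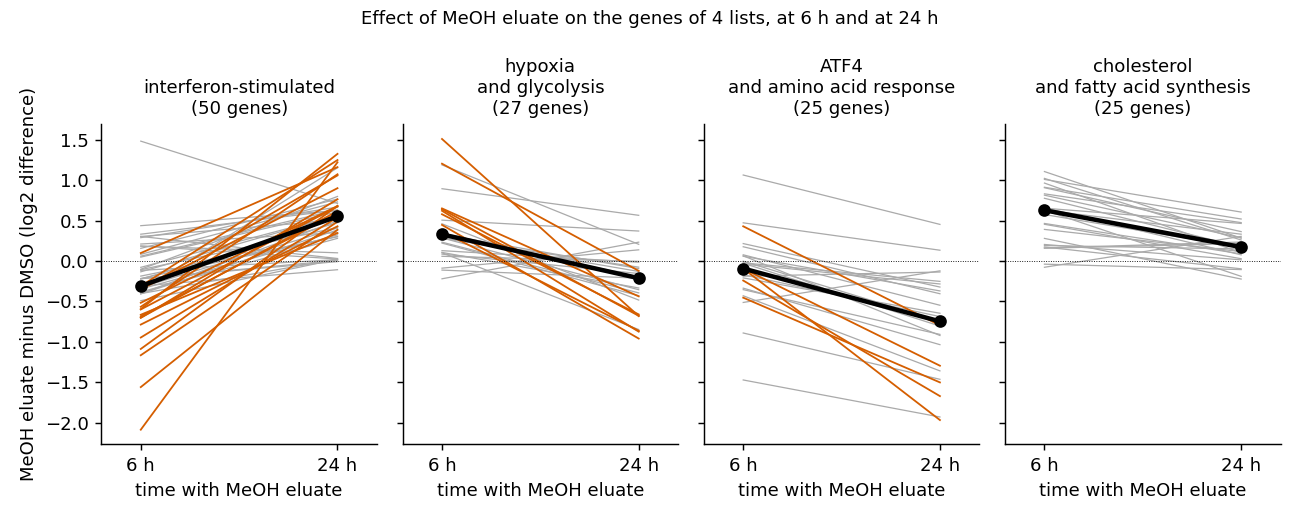
Log2 effect of MeOH eluate at 6 h and 24 h for the tested members of 4 gene lists, 1 line per gene, with called differences in orange and the list median in black. The median rises from -0.31 to 0.55 for interferon-stimulated genes and falls from 0.33 to -0.21 for hypoxia and glycolysis and from -0.09 to -0.75 for the amino acid response.

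Most genes of cholesterol and fatty acid synthesis were higher at 6 h. Of 25 tested, 21 were higher at an adjusted p under 0.05 at 6 h and 13 at 24 h, beside 8.65% and 9.64% of all genes, and none was lower at either time. Only Hmgcs1, Idi1 and Msmo1, which act early and midway in the synthesis of cholesterol, were called at 6 h, at 1.11, 1.02 and 1.01. No difference was called, while 13 were negative at an adjusted p under 0.05 and none was positive (3.84% and 3.94% of all genes). The median effect was 0.63 at 6 h and 0.17 at 24 h.

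Of 19 tested targets of NF-kB and related genes, 11 were higher at 6 h and 10 at 24 h at an adjusted p under 0.05 (8.65% and 9.64% of all genes), and none and 2 were lower. The median effect was 0.76 at 6 h and 0.28 at 24 h, and the median difference was -0.25. At an adjusted p under 0.05 the difference was negative for 5 and positive for 1 (3.84% and 3.94% of all genes). Ccl2 and Tnfaip2 had a called negative difference and Il7 a positive one (0.638% and 0.809% of all genes). Cxcl1, a chemokine for neutrophils, was 1.32 and 0.80 higher, and Tnfaip3, an inhibitor of NF-kB, 1.05 and 0.74, with no called difference. Immediate early genes, 25 tested, had 13 members higher at 6 h and 14 at 24 h at an adjusted p under 0.05 (8.65% and 9.64% of all genes). They had no called difference. Jund and Klf6 were called only at 6 h, Atf3 and Fosl2 only at 24 h. Of 24 targets of p53, 12 were higher at 6 h and 18 at 24 h at an adjusted p under 0.05, beside 8.65% and 9.64% of all genes. At each time 2 were lower, beside 8.38% and 8.6% of all genes. The p53 targets had no called difference and a median difference of 0.23.

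In the list of iron and metals the called differences were positive. Mt2, a metallothionein that binds zinc and copper, had signals of 10.02 and 10.01 with DMSO and 9.27, 9.27 and 8.93 with MeOH eluate at 6 h. At 24 h its signals were 9.55 and 9.16 with DMSO and 10.09, 10.24 and 10.15 with MeOH eluate. The groups changed order without overlap, a difference of 1.66 ± 0.17 (adjusted p = 2.6e-05, limma). Mt1, its relative, went from -0.32 to 0.75 and Slc40a1, the iron exporter ferroportin, from -0.25 to 0.78. These were the 3 called among 16 genes of iron and metals (0.809% of all genes were called positive), and 1 to 3 were called with an array left out. At an adjusted p under 0.05 with no limit on fold, 3 differences were positive and 3 negative (3.94% and 3.84% of all genes), so the list had no common direction.

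Few members had a called difference in several other lists. Dkk1, a secreted inhibitor of Wnt, went from -0.89 to 0.88, a difference of 1.78 ± 0.20 (adjusted p = 7.0e-05, limma). T and Dkk1 were the only 2 of 22 Wnt genes with a called difference, both positive (0.809% of all genes). Among 23 pluripotency genes the homeobox factor Nanog went from -0.94 to 0.16 (adjusted p of the difference = 0.0099, limma). Tbx3, counted above in the BMP and cardiac progenitor lists too, had the only called negative difference of this list. Over all genes 0.809% were called positive and 0.638% negative. The list median difference was 0.13. Of the imprinted genes that control growth, Dlk1 fell by 1.40 at 24 h with no call at 6 h, and Phlda2 went from 0.97 to -0.80. Epha2, an ephrin receptor, went from -0.70 to 0.49 and its ligand Efna1 from 0.14 to -1.09. Lfng, which modifies Notch, went from 0.97 to -0.16, Osgin1, a target of NRF2, from 0.12 to -1.68, Thy1, a surface protein of mesenchyme, from 0.45 to -1.04, and Spink1, a protease inhibitor of endoderm, from -0.29 to -1.98. No difference was called among 28 cell cycle genes, 22 of the respiratory chain, 19 of EMT and cadherins, 24 collagens and matrix enzymes, 17 of neuroectoderm or 8 of the aryl hydrocarbon receptor.

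Further genes that the paper names were examined for the time difference. Bdnf, a neurotrophin, had effects of -0.12 and 0.03 on its brightest probe and a difference of 0.15 (95% interval -0.11 to 0.40). A further probe of Bdnf gave 0.25 at 6 h and 0.94 at 24 h (adjusted p = 0.43 and 0.0032, limma). Its difference was 0.69 (adjusted p = 0.16), so the value depends on the probe. In the paper BDNF was predicted as an activated upstream regulator at 6 h, which is not the level of this transcript. Mesp1, a factor of the earliest cardiac mesoderm, had effects of 0.14 and -0.48 and a difference of -0.62 (interval -1.05 to -0.19, adjusted p = 0.075, limma). For Mef2c, a factor of muscle, the interval was -0.39 to 0.41. Adamts9, a matrix protease, was called only at 6 h (-1.18), and its difference was 0.44 on the brightest probe (adjusted p = 0.20) and 1.62 and 0.54 on other probes.

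The dose was 0.25 mg/ml for WS1442 but 0.1 mg/ml for MeOH eluate, so the treatments differ in dose as well as in composition, and the values stand side by side. The DMSO cultures cancel in the comparison of the change with time, which then sets MeOH eluate minus WS1442 at 24 h against the same at 6 h. This change with time differed for 224 genes (0.764%), 108 higher and 116 lower for MeOH eluate. The count was 631 without WS1442 6 h replicate 1, 147 without WS1442 6 h replicate 3, 111 without WS1442 24 h replicate 3 and 131 without MeOH eluate 6 h replicate 3. For Lzts1 the effects of WS1442 were -1.27 at 6 h and -0.21 at 24 h, and the change with time differed by 1.24 (adjusted p = 1.4e-06, limma). For Aldh1a2 they were 0.18 and 2.39, and the change differed by 0.37 (adjusted p = 0.21). Etv2 had effects of 0.01 and -1.04 with WS1442, a change that differed by -1.16 (adjusted p = 0.00013). Iigp1, with 0.10 and -0.12 under WS1442, differed by 2.16 (adjusted p = 7.7e-07), and Isg15, with -0.10 and 0.37, by 0.99 (adjusted p = 0.00016), just under the limit of 2-fold. Ccl20, with 0.50 and 0.93, differed by -2.39 (adjusted p = 1.5e-05), and Bace2, a protease related to the one that cuts the amyloid precursor, with -0.05 and -0.58, by -1.81 (adjusted p = 2.5e-05). Cer1, with -0.89 and -1.10, differed by 1.98 (adjusted p = 0.0022). Myl7 had 0.61 and -1.17 and differed by -1.29 (adjusted p = 0.0015).

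Single arrays moved some of the counts. Without replicate 2 of DMSO at 24 h the number of genes with a called difference rose from 424 to 993, 754 positive and 239 negative, of which 342 were shared, the late genes from 139 to 671, and the genes called at 24 h from 594 to 1509. Without replicate 1 of DMSO at 6 h the number of called differences was 335, the lowest with any array left out, and 264 genes in place of 428 were called at 6 h. The transient genes numbered 127 without DMSO 6 h replicate 2 and 113 without MeOH eluate 6 h replicate 2, against 71. The other 8 omissions gave 361 to 457 called differences.

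**Figure D5:**
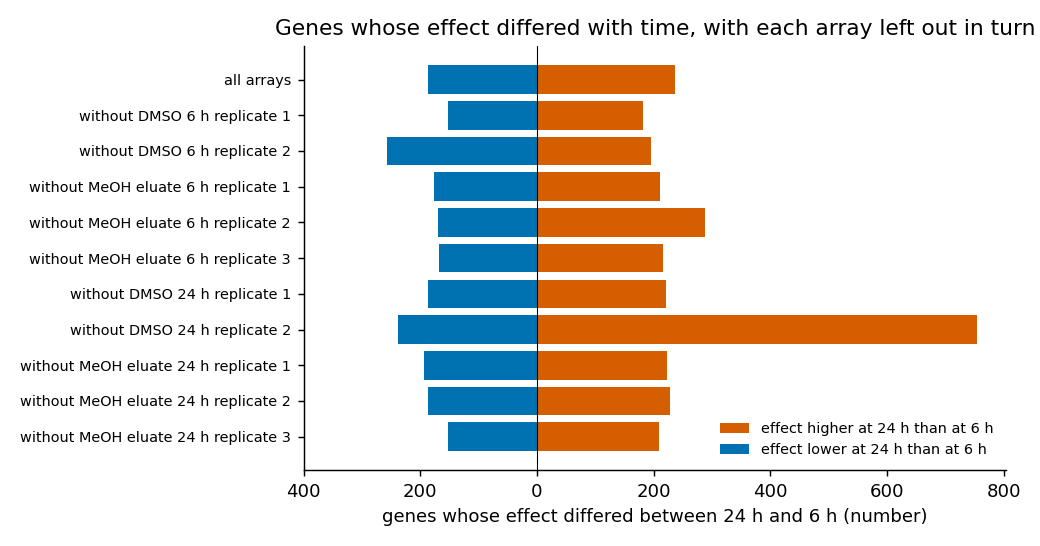
Number of genes with a called positive or negative difference between the effects at 24 h and 6 h, with all arrays and with each of the 10 DMSO and MeOH eluate arrays left out in turn. Leaving out replicate 2 of DMSO at 24 h gives 754 positive genes, against 182 to 288 for the other omissions.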

How the data were processed

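For each of 16 cultures the authors deposited intensities from the scanner, read on a 1-colour Agilent array, on which Cy3-labelled RNA was hybridised, after background correction within the array. The table of processed values that they also deposited holds linear intensities, quantile normalized over all arrays, and served as an alternative. From the scanner files, spots marked non-uniform were set missing (44 values among the genes tested, on the 10 arrays compared), probes spotted repeatedly were averaged, and log2 intensities were quantile normalized. Probes were kept where all arrays of any of the 6 groups called them well above background, and a gene was read from its brightest kept probe. A model of 6 group means was fitted with limma 3.58.1 in R 4.3.3 (eBayes with trend). Tables and figures were made in Python 3.11.15. A call needed an absolute log2 value over 1 and an adjusted p under 0.05 (Benjamini-Hochberg, 29303 genes). The fit was tested on simulated data.

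"At least" folds, for a group that was not well above background, set the mean of the brighter group against the lowest signal among probes well above background on each array, or the probe's own signal where higher. Named were, per class and direction, the 4 annotated genes with the largest difference (sustained: the largest smaller effect) that were above background and whose treated arrays lay beyond both DMSO arrays, called members of the gene lists, genes of the paper's text and those at the limits; some that met this rule are not reported here. The members, classes and 36 lists were chosen with earlier results of these data known, and 1 list and 2 motifs after the values were seen. Alternatives covered background correction, scaling, filter, probe choice, arrays fitted, variance prior, weights, blocks and each array left out. Gene coordinates are those of the RefSeq promoter table (GRCm38.p6), not of the arrays.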

Additional observations from a re-analysis of the deposited data

Results flagged for a closer look

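The effect of MeOH eluate differed between the 2 times for 424 genes in a test of the difference itself, which is the subject of the report. The change of effect with time differed between MeOH eluate and WS1442 for 224 genes, again by a test of that difference. On the log2 scale and by the same limits, the change was higher with MeOH eluate for Iigp1 (2.16) and lower for Ccl20 (-2.39) and Bace2 (-1.81), and it was higher for Cer1 (1.98), with 1 of 3 MeOH eluate arrays well above background at 6 h. For 4 further genes at least 1 MeOH eluate group was not well above background, so that the fitted values give a direction and no measured size. They were 2.20 for Ifit3, 2.18 for Gsto2, -2.54 for Pilra and -1.86 for Eps8l3. Ifit3 was above background with neither MeOH eluate nor WS1442 at 6 h. Gsto2, a glutathione transferase, was well above background on 1 DMSO and no MeOH eluate array at 6 h. Eps8l3, a relative of the EGF receptor substrate EPS8, was well above background on 1 of 2 DMSO arrays at each time and on no MeOH eluate array at 24 h, and its own difference between 24 h and 6 h was not called (-1.86, adjusted p = 0.11, limma). Pilra was above background with MeOH eluate at neither time.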

How the results depend on the processing

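Of 118 named genes, 99 had a value under all 22 alternatives, and the other 19 were not on probes above background on all 10 arrays. A call was kept under every alternative by 58 of the 99, and no value of the 118 reversed. Normexp background correction gave the fewest called differences, 143 (65 positive, 78 negative), and the fewest for the contrast with WS1442, 35. It also gave the fewest genes of each class, with 13 transient, 32 late, 13 sustained and 15 reversed. It left 68 genes called at 6 h and 111 at 24 h, and only the t-test given below left fewer. The limits of the study, 2-fold at an unadjusted p under 0.05, gave 977 differences, 218 transient and 311 late genes, and 507 for WS1442. With no limit on fold there were 2280 differences, 4993 genes at 6 h, 5343 at 24 h, 680 transient, 1204 late, 1521 sustained and 301 reversed genes, and 5040 for WS1442. Probes above background on all 10 arrays gave 248 genes at 6 h and 300 at 24 h, a fit of the 10 arrays alone 139 transient genes, array weights 360 for WS1442, and the methods' t-test after Benjamini-Hochberg 4 genes at 6 h and 60 at 24 h. The cause of these shifts was not tested.

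Replicate numbers were not used to pair samples in the main fit. Among DMSO and MeOH eluate arrays, 3 of 13 same-numbered pairs had correlated deviations over 0.1 (r from -0.16 to 0.12). Against WS1442 arrays such pairs ran from -0.24 (DMSO 24 h replicate 2) to 0.31 (MeOH eluate 6 h replicate 1). Deviations of 2 DMSO arrays from their mean mirror each other, so these correlations are not independent and cannot exclude pairing. The replicate number as a block gave 415 differences and, set within a time point, 347, with 25 reversed genes. Scaling to the 75th percentile gave 390 differences, 194 positive and 196 negative, and the values deposited in processed form gave 428, of which 420 were shared. With 1 array left out, called differences numbered 335 to 993, genes at 6 h 264 to 497, genes at 24 h 449 to 1509, transient 54 to 127, late 110 to 671, sustained 45 to 54, reversed 26 to 48, and genes in contrast with WS1442 111 to 631. With 2 DMSO cultures per time, leaving out 1 assumes that the other varies like the remaining groups. Dim signals limit folds to bounds, and the slide coincides with the time.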
